A study of Mus musculus with 9 samples.

Results

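Peritoneal macrophages that had lost SHP2 by gene deletion (KO) were compared with peritoneal macrophages that kept the gene and received SHP099, an allosteric inhibitor of SHP2. The comparison asks how removing the protein in the animal and inhibiting it for hours in the dish differ in what the cells express. It rests on 6 of the 9 RNA-seq libraries of the series, 3 labelled KO and 3 labelled SHP099. Of 54059 genes in the deposited table, the 11450 genes with a mean of at least 1 FPKM over the 9 libraries were tested. FPKM is the number of sequenced fragments scaled for transcript length and sequencing depth. Differences are given as KO minus SHP099 on the scale of log2(FPKM + 1), with the standard error (SE) and the adjusted p of limma over all 11450 genes.

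All groups were C57BL/6 mice, aged 8 weeks by the labels while the methods of the study give a wider range, whose peritoneal macrophages were collected 3 days after an injection of 1 ml starch broth into the abdomen, and all cells were exposed to imiquimod (IMQ), a small-molecule TLR7 ligand, for 4 h. The KO cells have the genotype SHP2lyz2-/-, in which a floxed Ptpn11, the gene of SHP2, is deleted by a Cre recombinase driven from the Lyz2 locus. This Cre acts in monocytes, mature macrophages and granulocytes, so the deletion precedes the experiment and also reaches blood monocytes. The SHP099 cells are wild type and received SHP099 at 10 µM for 2 h and then IMQ at 10 µg/ml. The WT cells are wild type and received IMQ without SHP099, and their 3 libraries are given beside the others as the level with neither gene loss nor inhibitor. For the KO cells the IMQ concentration used for sequencing is not stated. Genotype against compound, development against hours, and the animal against the dish change together between the groups and cannot be told apart. The labels do not say that the libraries of a group came from separate mice, so the p-values measure the spread between these libraries.

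SHP2 is a tyrosine phosphatase that is folded shut at rest and opens when its SH2 domains bind phosphorylated docking proteins such as Gab1 and Gab2. In its open form it promotes signalling from growth factor and cytokine receptors through Ras to the ERK kinases, and in macrophages it also acts below Toll-like receptors. SHP099 holds the folded form together, so that the protein stays and its activity is blocked, whereas deletion takes away the catalytic activity and the docking functions together. IMQ is sensed in endosomes by TLR7, which signals through the adaptor MyD88 to NF-kB and the MAP kinases and switches on genes of inflammatory cytokines.

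The read totals behind the 6 libraries, worked out from the steps of their FPKM values, ran from 39841813 to 45589720. KO_3 stood apart from the other KO libraries before any gene was considered. Across the 11450 genes, Pearson's r of the log2 levels was 0.992 between KO_1 and KO_2, 0.967 between KO_1 and KO_3 and 0.954 between KO_2 and KO_3, while KO_3 reached 0.984 with SHP099_1, 0.976 with SHP099_2 and 0.975 with SHP099_3. KO_3 also reached 0.980 with WT_2, beside 0.963 with WT_1 and 0.962 with WT_3. These values are across genes within pairs of libraries, and genes are not independent replicates. The SHP099 libraries resembled each other at 0.988 to 0.991. At 504 genes KO_3 differed at least 2-fold from both KO_1 and KO_2. Ptpn11 itself did not set KO_3 apart, since it was as low there as in the other KO libraries, so the library carries the low Ptpn11 of its genotype label. Xist, the transcript of the inactive X chromosome, was at 141, 160 and 103 FPKM in KO and 128, 114 and 91.7 in SHP099, and it was the only gene of 5 sex-linked check genes above the filter, so the groups did not differ in sex by this check. Results below are therefore given with all libraries and, for many lists and some genes, also without KO_3. Where no such value is printed, the value may still move when KO_3 is left out.

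All 6 libraries carried the macrophage transcripts that the label calls for. All 12 pan-macrophage markers, such as Adgre1, Cd68 and Csf1r, passed the filter, and their summed FPKM was 12573, 12994 and 12503 in the KO libraries and 15922, 17293 and 18692 in the SHP099 libraries, with Lyz2 as the most abundant. Without Lyz2, which is the Cre locus, the sums overlapped, at 7710, 8251 and 7096 in KO and 6573, 7013 and 7976 in SHP099. The median difference of the 12 markers was -0.27, which was -0.61 without KO_3 and -0.03 without KO_2. Of the 12, 1 was higher and 3 lower with no overlap, beside 17.7% of all genes. Of the 12 markers of large resident peritoneal macrophages 7 passed, with sums of 39.2, 32.4 and 38.1 in KO and 34.4, 28.2 and 39.8 in SHP099, led by the secreted scavenger protein gene Cd5l. Of the 12 markers of recruited macrophages 10 passed, with sums of 891, 779 and 1198 in KO and 802, 723 and 804 in SHP099, led by fibronectin, Fn1. The resident marker sums were thus low and overlapped between the groups. The recruited marker sums overlapped with Fn1, were apart without it, at 565, 565 and 479 in KO and 284, 284 and 328 in SHP099, and without Fn1 and Lyz1, the neighbour of Lyz2, overlapped again, at 254, 289 and 369 in KO and 260, 258 and 290 in SHP099. Their part in the results below was not tested. In bulk samples such as these, fewer cells of a type and less RNA per cell cannot be told apart.

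At an adjusted p of at most 0.05, 8 of 11450 genes (0.0699%) differed between KO and SHP099. In KO, 3 genes (0.0262%) were higher, Ccl9, Il1rn and Fos, and 5 genes (0.0437%) were lower, Ptpn11, H2-Q5, H2-Q6, H2-Q7 and H2-M3. The deleted gene therefore came out together with genes of MHC class I heavy chains on the lower side, and with a chemokine, the IL-1 receptor antagonist and an immediate early gene on the higher side. At the stricter thresholds of the methods, an adjusted p of at most 0.005 and at least a 2-fold change, limma called 0 genes (0%), as did limma voom on recovered reads, although 1437 genes (12.6%) had an unadjusted limma p under 0.05. The 3 KO and 3 SHP099 libraries did not overlap at 2022 genes (17.7%), with KO higher at 905 (7.9%) and lower at 1117 (9.76%). With 3 libraries a group the smallest p of an exact permutation test is 0.1, so single genes rest on the limma fit, which shares its estimate of spread across genes.

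The count rested on single libraries. Without KO_3, 2277 of 11450 genes (19.9%) reached an adjusted p of at most 0.05, 1374 higher and 903 lower in KO, among them all 8 genes named above, and 159 genes passed the thresholds of the methods. The 8 genes had been picked with KO_3 in the fit, which favours genes at which KO_3 is close to KO_1 and KO_2. Without KO_1 or any single SHP099 library the count was 0 in this limma fit, and without KO_2 it was 2. At an unadjusted limma p under 0.05 there were 759 genes without KO_1 and 1053, 772 and 954 without SHP099_1, SHP099_2 and SHP099_3. Of the 2277 genes, KO_3 lay within the range of the SHP099 libraries at 723, past them on the side away from KO_1 and KO_2 at 775, between the ranges at 682, within the range of KO_1 and KO_2 at 58 and past it at 39. KO_3 thus lay on the side of KO_1 and KO_2 only at some of these genes, and on the other side of SHP099 at 775 of them. At least 2-fold differences between libraries of a group were found at 123 genes for KO_1 and KO_2, at 581 and 922 for KO_3 against each of them, and at 147, 288 and 146 for the pairs of SHP099 libraries. Other settings of the same data moved the count between 0 and 17. Median-of-ratios scaling turned the split to 5 higher and 2 lower genes, 5 of them among the 8.

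**Figure D1:**
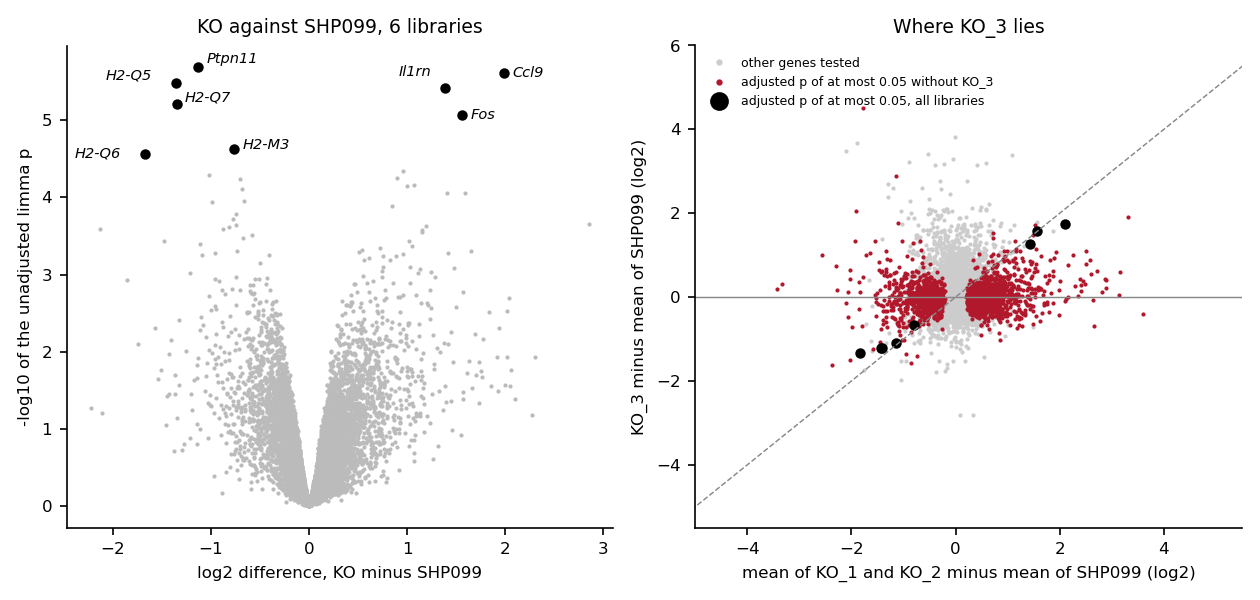
Left, log2 difference (KO minus SHP099) against the unadjusted limma p on a negative log10 axis for the 11450 genes, with the 8 genes at an adjusted p of at most 0.05 in black. Right, for the same genes, the position of KO_3 against that of KO_1 and KO_2, each minus the mean of the SHP099 libraries, with the 2277 genes called without KO_3 in red: at 723 of them KO_3 lies within the SHP099 range, near the horizontal line, and at 775 past it on the side away from KO_1 and KO_2, while the 8 genes lie near the diagonal, where KO_3 equals KO_1 and KO_2. The fit that picked the 8 genes included KO_3, which favours genes near the diagonal.

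Ptpn11 (ENSMUSG00000043733, minus strand, chr5:121130533-121191397 in GRCm38, GENCODE M21) was at 18.6, 17.8 and 18.9 FPKM in the KO libraries, at 43.0, 42.1 and 39.6 in the SHP099 libraries and at 45.8, 44.0 and 39.99 in the WT libraries. The KO libraries held 44.3% of the SHP099 level, a difference of -1.13 ± 0.08 (SE, adjusted p = 0.0109, all 3 KO libraries below all 3 SHP099 libraries). Transcript of the gene was thus low in each KO library without being absent, and the SHP099 libraries overlapped the WT libraries (SHP099 minus WT, -0.05, adjusted p = 0.729). The table gives a value per gene and not per exon, so transcripts that lack the deleted part and transcripts from cells that escaped deletion cannot be told apart.

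The Cre locus also stood out. Lyz2, which encodes the main lysozyme of macrophages and carries the Cre in the KO mice, was at 4863, 4743 and 5407 FPKM in KO and at 9348, 10280 and 10715 in SHP099, a difference of -1.02 ± 0.11 that missed the threshold (adjusted p = 0.0555) and passed it without KO_3 (-1.07, adjusted p = 0.00242). Its neighbour Lyz1, the lysozyme of Paneth cells and of some recruited macrophages, went the other way, with 311, 276 and 110 FPKM in KO and 23.5, 26.0 and 37.7 in SHP099 (2.85 ± 0.40, adjusted p = 0.106; without KO_3 3.32, adjusted p = 0.00105). Neither gene overlapped between the groups: each KO library was below each SHP099 library for Lyz2 and above each for Lyz1, and the WT libraries, at 7440, 10228 and 7951 for Lyz2 and 20.9, 33.6 and 13.1 for Lyz1, overlapped SHP099 for both. The lysozyme transcripts share sequence, with 15.4% of the 50-base windows of Lyz2 also present in Lyz1 and 16.1% of those of Lyz1 in Lyz2, so part of the reads could have been assigned to either, and how the counting treated such reads is not stated.

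Genes around both altered loci lay on both sides. Of 97 tested genes that start within 5 Mb of Ptpn11, itself included, 49 were higher and 48 lower in KO, 7 and 8 of them with no overlap, beside 17.7% of all genes. Their median was 0.00, which turned to -0.01 under median-of-ratios scaling and -0.02 under quantile normalization. It ran from -0.04 without SHP099_3 to 0.03 without KO_3. Besides Ptpn11, 0 of the 97 genes passed the limma test, and the largest difference was that of the interferon-induced Oas1g, -1.04. Without KO_3, 14 higher and 6 lower of the 97 passed it, Ptpn11 among them, beside 19.9% of all genes. Around Lyz2, 19 of 40 genes, Lyz2 and Lyz1 included, were higher and 21 lower, 4 and 8 of them with no overlap, beside 17.7% of all genes, and 0 called. Without KO_3, 5 higher and 10 lower of the 40 were called, Lyz1 and Lyz2 among them, beside 19.9% of all genes. Their median was -0.05, 0.01 with limma voom, -0.07 under quantile normalization or at a mean of at least 5 FPKM, and -0.02 with a pseudocount of 0.1 or 5 or without KO_2, SHP099_1 or SHP099_2. Whether the altered loci act on their neighbours was not tested. The medians lay close to the 0.02 of all 11450 genes, of which 6091 were higher and 5359 lower.

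**Figure D2:**
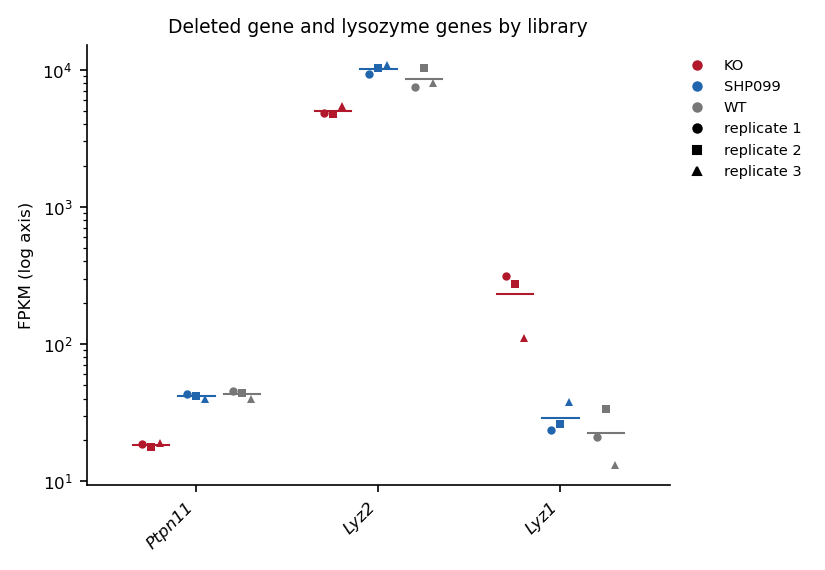
FPKM on a log axis of Ptpn11, Lyz2 and Lyz1 in each library of the KO, SHP099 and WT groups, with a bar at the mean of each group. Ptpn11 and Lyz2 are lower in the 3 KO libraries than in all SHP099 libraries, and Lyz1 is higher, with KO_3 the lowest of the KO libraries for Lyz1.

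Lower in KO than in SHP099 were, besides Ptpn11, genes of MHC class I heavy chains, the proteins that hold peptides at the cell surface for CD8 T cells and for natural killer cell receptors. H2-Q6, of the Qa-2 family of nonclassical class I genes, was at 36.5, 36.2 and 51.6 FPKM in KO and at 150, 114 and 135 in SHP099 (-1.67 ± 0.17, adjusted p = 0.0386). Its relatives H2-Q7, at 61.8, 68.7 and 74.9 against 173, 160 and 195 (-1.35 ± 0.11, adjusted p = 0.0139), and H2-Q5, at 40.1, 43.5 and 48.5 against 115, 106 and 122 (-1.35 ± 0.10, adjusted p = 0.0109), were similar. H2-M3, which presents formylated bacterial peptides, was at 39.5, 41.7 and 44.5 against 70.0, 72.0 and 72.5 (-0.76 ± 0.07, adjusted p = 0.0386). For these 4 genes all 3 KO libraries were below all 3 SHP099 libraries, KO_3 included. In the WT libraries the same genes spread widely: H2-Q6 was at 43.3, 53.5 and 199, H2-Q7 at 86.9, 103 and 242, H2-Q5 at 46.3, 61.8 and 116 and H2-M3 at 39.4, 41.8 and 68.6, so that WT_1 and WT_2 were nearer the KO level and WT_3 was near or above the SHP099 level. Neither comparison with WT, which both share the WT libraries, passed the test for any of the 4 (KO minus WT, -0.91, -0.92, -0.65 and -0.20; SHP099 minus WT, 0.76, 0.43, 0.71 and 0.55).

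The genes of classical class I molecules, which are far more abundant, lay on the same side without passing the test. H2-K1 was at 3042, 2999 and 3298 FPKM in KO and at 5000, 5018 and 5591 in SHP099 (-0.74 ± 0.10, adjusted p = 0.09; without KO_3 -0.78, adjusted p = 0.0042). H2-D1 was at 6649, 6876 and 6312 against 8425, 8712 and 8631 (-0.38, adjusted p = 0.279). Among other heavy chains, H2-T22 had 35.4, 37.6 and 36.9 FPKM against 61.4, 55.8 and 63.4 (-0.70, adjusted p = 0.0555). Because the heavy chain list was chosen after the values were seen, its counts describe it and support nothing: of 24 genes 16 were tested, 13 were lower and 3 higher in KO, 10 lower with no overlap (9.76% of all genes), and the median was -0.72, and -0.74 without KO_3, beside 0.02 and 0.05 over all genes. The heavy chain transcripts resemble each other, and of the 50-base windows of H2-Q5, H2-Q6 and H2-Q7, 36.4%, 27.0% and 25.1% occur in another H2 gene, against 0.576% for H2-M3. Reads of the Q genes can thus have been shared among them, whereas H2-M3 is nearly free of this.

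Partners of the heavy chains did not pass the test. Without KO_3, 3 higher and 5 lower of the 15 genes listed passed it, beside 19.9% of all genes. B2m, the light chain common to class I molecules, was at 3904, 4128 and 3611 FPKM in KO and at 4336, 4395 and 5422 in SHP099 (-0.28, adjusted p = 0.416). The immunoproteasome subunit Psmb8, which cuts proteins into fitting peptides, was at 54.4, 61.2 and 60.7 against 101, 90.0 and 114 (-0.78 ± 0.11, adjusted p = 0.0976; without KO_3 -0.80, adjusted p = 0.00698), and Psmb10 at 170, 181 and 183 against 265, 245 and 291 (-0.58, adjusted p = 0.113). The peptide transporter gene Tap2 was at 64.1, 66.1 and 61.0 against 85.7, 76.6 and 99.5 (-0.44, adjusted p = 0.273), and Tap1 had the largest difference of the list, at 30.6, 33.0 and 43.0 against 91.0, 45.3 and 115 (-1.13, adjusted p = 0.32). Tap1 overlaps Psmb9 on the opposite strand, so that reads of the pair cannot be told apart where the strand of counting is not stated. In this list of 15 peptide loading and immunoproteasome genes, also chosen after the values were seen, 12 were lower and 3 higher, 10 lower and 1 higher with no overlap (17.7% of all genes), with a median of -0.32, beside 0.02 over all genes, and 0 genes at an adjusted p of at most 0.05.

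**Figure D3:**
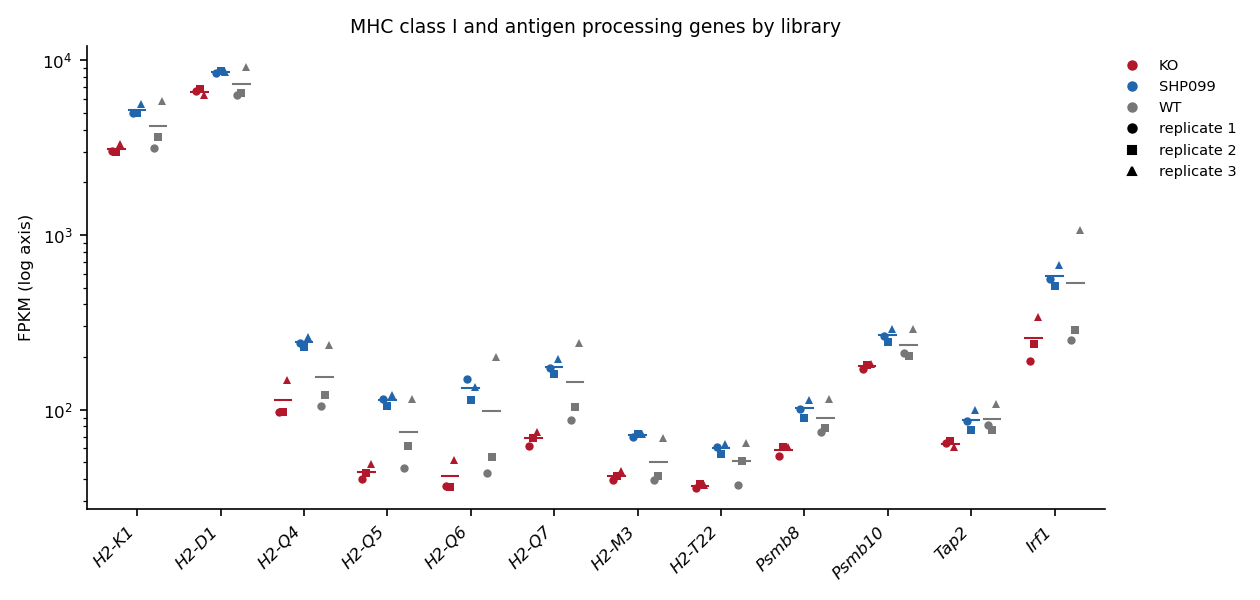
FPKM on a log axis of 12 genes of MHC class I heavy chains, antigen processing and Irf1 by library, with a bar at the mean of each group. The KO libraries lie below the SHP099 libraries for each gene shown, and WT_3 lies above WT_1 and WT_2 for each.

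The promoters of H2-Q7 and H2-K1 are shown because both genes were lower in KO and because a kB-type sequence, of the kind that NF-kB dimers bind, occurs in them. The sequences are from RefSeq on GRCm38.p6, 300 bases around the annotated start, written along the strand of the gene, and the capitals mark the letters GGGATTCCC, searched on both strands. H2-Q7 is on the plus strand (chr17:35438905-35439204) and H2-K1 on the minus strand (chr17:34000284-34000583), and the letters begin 132 and 124 bases before the annotated start.
H2-Q7: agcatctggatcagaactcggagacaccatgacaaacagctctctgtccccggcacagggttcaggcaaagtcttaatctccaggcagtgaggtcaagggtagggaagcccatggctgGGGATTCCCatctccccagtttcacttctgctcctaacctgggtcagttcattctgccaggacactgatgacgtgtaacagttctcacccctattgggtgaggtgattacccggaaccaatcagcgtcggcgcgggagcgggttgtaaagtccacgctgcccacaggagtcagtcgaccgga
H2-K1: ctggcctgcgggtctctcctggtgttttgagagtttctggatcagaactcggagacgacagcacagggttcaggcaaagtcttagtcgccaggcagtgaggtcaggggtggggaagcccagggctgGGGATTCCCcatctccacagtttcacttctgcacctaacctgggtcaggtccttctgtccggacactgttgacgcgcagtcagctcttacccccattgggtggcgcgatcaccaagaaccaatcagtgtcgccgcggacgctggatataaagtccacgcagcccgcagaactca
Of the 16 tested heavy chain genes 10 had a promoter in the RefSeq table, and 4 of them, H2-D1, H2-K1, H2-Q6 and H2-Q7, held the letters, against 116 of all 32851 promoters (0.353%). The heavy chain genes arose by duplication and their promoters are related, so they are not separate cases. H2-D1, whose levels differed least of these 4, holds the same letters, and 0 of 12 peptide loading and immunoproteasome genes did. Of the 7 genes that passed the test and had a promoter in the RefSeq table, 2 held them, H2-Q6 and H2-Q7. H2-K1 did not pass the test. A match is a description of the letters in the window and not a binding site or a cause.

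Interferon-stimulated genes were mostly lower in KO than in SHP099, without any that passed the test. Without KO_3, 7 of the 45 tested passed it, all lower in KO, beside 19.9% of all genes. Of 45 tested, 42 were lower and 3 higher, 12 lower and 0 higher with no overlap (17.7% of all genes), and the median was -0.40, with -0.57 without KO_3 and -0.25 without SHP099_3. Outside the list, Irf1, a transcription factor induced by interferons and by NF-kB, was at 190, 239 and 341 FPKM in KO and at 561, 511 and 673 in SHP099 (-1.21 ± 0.22, adjusted p = 0.185; without KO_3 -1.43, adjusted p = 0.00296). The guanylate-binding protein gene Gbp2 was at 113, 151 and 178 against 285, 194 and 402 (-0.95, adjusted p = 0.32). The WT group varied widely, and in it Irf1 was at 249, 286 and 1062 and the interferon-induced chemokine gene Cxcl10 at 16.3, 16.9 and 140, so WT_3 stood above the other WT libraries. Cxcl10 itself was at 6.11, 4.14 and 12.8 in KO and 16.4, 9.28 and 21.8 in SHP099, with overlap between the groups. As medians of the list, KO minus WT was -1.09 and SHP099 minus WT -0.69, each resting on the same WT libraries.

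Higher in KO than in SHP099 were Ccl9 and Il1rn, 1 of 12 CC chemokine genes and 1 of 9 IL-1 family genes tested, beside 0.0262% of all genes. Without KO_3, 3 of the 12 and 3 of the 9 passed the test, all higher, beside 19.9% of all genes in either direction. Ccl9, a CC chemokine of myeloid cells, was at 242, 286 and 205 FPKM in KO and at 66.0, 54.5 and 61.1 in SHP099 (1.99 ± 0.14, adjusted p = 0.0109). Il1rn, which encodes the secreted antagonist of the IL-1 receptor, was at 144, 147 and 131 against 54.8, 47.2 and 58.8 (1.38 ± 0.10, adjusted p = 0.0109). For both genes each KO library was above each SHP099 library, and the WT libraries were higher still, at 869, 500 and 662 for Ccl9 and 348, 440 and 445 for Il1rn. SHP099 minus WT was -3.43 for Ccl9 and -2.91 for Il1rn (adjusted p = 0.00146 and 0.000742), and KO minus WT was -1.44 and -1.53 (adjusted p = 0.192 and 0.0168), so of the 3 groups the SHP099 libraries were the lowest and the KO libraries in between.

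The agonists of the same receptor had the same order with more spread. Il1b was at 763, 706 and 594 FPKM in KO and at 192, 99.96 and 409 in SHP099 (1.78 ± 0.46, adjusted p = 0.279), and Il1a at 354, 344 and 326 against 218, 68.2 and 185 (1.28 ± 0.41, adjusted p = 0.331). The KO and SHP099 libraries did not overlap for either gene, and the spread came from the SHP099 side, where SHP099_2 was the lowest library for both. In the WT libraries Il1b was at 4291, 4108 and 3143 and Il1a at 1215, 1373 and 1048. Over the IL-1 family list, 9 of 20 genes were tested, 8 were higher and 1 lower in KO, 4 higher with no overlap (7.9% of all genes), and the median was 0.79. Without KO_3 it was 0.79 as well, with 6 genes higher and 3 lower. As medians over the list, KO minus WT was -0.68 and SHP099 minus WT -1.58.

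Ccl9 and Il1rn are the genes of secreted proteins that passed the test, and their promoters are shown because both hold an AP-1-type sequence, of the kind that Fos and Jun dimers bind, and Fos was itself among the 8 genes. The sequences are again from RefSeq on GRCm38.p6, 300 bases long and along the strand of the gene, and the capitals mark TGANTCA, where N is any base, searched on both strands. Ccl9 is on the minus strand (chr11:83578587-83578886) and Il1rn on the plus strand (chr2:24336610-24336909), with the letters beginning 53 and 141 bases before the annotated start.
Ccl9: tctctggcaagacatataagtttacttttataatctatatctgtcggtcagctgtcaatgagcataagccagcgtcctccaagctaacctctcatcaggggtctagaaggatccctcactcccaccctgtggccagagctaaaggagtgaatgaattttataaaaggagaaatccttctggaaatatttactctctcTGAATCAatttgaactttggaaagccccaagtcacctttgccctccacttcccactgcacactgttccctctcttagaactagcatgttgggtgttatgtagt
Il1rn: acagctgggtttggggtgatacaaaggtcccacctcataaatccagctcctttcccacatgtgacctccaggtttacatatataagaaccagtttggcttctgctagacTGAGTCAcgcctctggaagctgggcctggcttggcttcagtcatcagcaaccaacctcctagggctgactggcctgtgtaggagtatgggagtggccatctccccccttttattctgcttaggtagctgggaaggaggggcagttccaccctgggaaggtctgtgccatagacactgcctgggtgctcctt
The letters occur in 2565 of 32851 promoters (7.81%), in 1 of the 3 promoters that RefSeq gives for Il1rn, and in 2 of the 7 genes that passed the test and had a promoter in the table. In the IL-1 family list Il1a and Il1rn held them, 2 of 9 genes. As above, the match describes letters and not a site.

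Other cytokine and chemokine genes followed less clearly. Without KO_3, 1 higher and 3 lower of 10 CXC chemokine genes and 4 higher and 4 lower of 26 other cytokine genes passed the test. Of all genes 19.9% passed without KO_3. Of 12 CC chemokine genes tested 8 were higher and 4 lower in KO, 4 higher with no overlap (7.9% of all genes), with a median of 0.56, and 0.35 without KO_3 or 0.31 without SHP099_2. Ccl22, a chemokine of activated macrophages and dendritic cells, was at 24.9, 16.1 and 5.46 FPKM against 2.79, 2.27 and 3.11 (1.94, adjusted p = 0.273; without KO_3 2.50, adjusted p = 0.00185), and the monocyte attractant Ccl2 at 342, 302 and 444 against 262, 128 and 211 (0.89, adjusted p = 0.326). Of 10 CXC chemokine genes 8 were lower and 2 higher, 1 of each with no overlap, near the 17.7% of all genes. Their median was -0.20, which was -0.68 without KO_3, -0.07 without KO_1 and 0.08 without KO_2. In the list of other cytokines and growth factors 18 of 26 genes were higher and 8 lower, 2 and 3 with no overlap, near the 17.7% of all genes, with a median of 0.33, and 0.21 without KO_1. Among them Il6 was at 51.3, 54.1 and 51.3 in KO and 25.9, 18.3 and 58.4 in SHP099, Tnf at 2573, 2733 and 3709 against 3724, 3513 and 4768, and Csf2 at 2.92, 2.55 and 1.84 against 2.88, 0.220 and 1.14. For these 3 genes the groups overlapped, and the cyclooxygenase gene Ptgs2 (469, 582 and 479 against 288, 237 and 541) and the IL-23 subunit gene Il23a (0.931, 1.43 and 2.57 against 0.813, 0.472 and 1.04) overlapped as well.

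Fos, the immediate early gene of an AP-1 subunit that is switched on within minutes by ERK signalling, was at 6.19, 4.98 and 5.60 FPKM in KO and at 1.19, 1.17 and 1.32 in SHP099 (1.56 ± 0.13, adjusted p = 0.0163). The SHP099 libraries were tightly grouped below all KO libraries, and the WT libraries were at 9.29, 9.13 and 2.73. SHP099 minus WT was -1.71 (adjusted p = 0.0445), and KO minus WT was -0.15 (adjusted p = 0.856). Hbegf, an EGF family growth factor that ERK signalling induces, was also lowest in SHP099. It was at 3.87, 4.11 and 3.23 in KO, 1.56, 1.05 and 1.42 in SHP099 and 9.87, 10.9 and 8.74 in WT (KO minus SHP099, 1.02 ± 0.15, adjusted p = 0.125). All WT libraries lay above all KO libraries for Hbegf, whereas the WT range of Fos overlapped that of KO. Dusp6, a phosphatase gene that ERK induces to limit itself, was at 12.6, 8.15 and 20.7 against 7.34, 5.56 and 6.01 (0.94, adjusted p = 0.335), and Myc at 14.7, 9.65 and 13.9 against 8.44, 5.91 and 4.59 (0.93, adjusted p = 0.278). These genes did not overlap between KO and SHP099, but others of the list did: Egr1 was at 2.35, 1.48 and 4.33 against 2.03, 1.14 and 2.41, and Dusp4 at 65.3, 63.2 and 69.5 against 69.0, 73.8 and 72.5. Over the ERK feedback and target list 15 of 29 tested genes were higher and 14 lower, 7 higher and 1 lower with no overlap (17.7% of all genes), with a median of 0.04, which was -0.16 without KO_3, 0.16 without KO_2, 0.07 without SHP099_1 and, over the 19 genes with a mean of at least 5 FPKM, -0.08. The median of all genes was 0.02, and 0.05 without KO_3. Without KO_3, 5 higher and 6 lower of the 29 genes passed the test, beside 19.9% of all genes.

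Besides Ptpn11, 0 genes of SHP2 docking partners, Toll-like receptors and the NF-kB system passed the test with all libraries. Without KO_3, 1 higher and 8 lower of 17 genes of the SHP2 list passed it, Ptpn11 among them. So did 4 higher and 1 lower of 25 Toll-like receptor genes, and 4 higher and 7 lower of 32 NF-kB genes. Of all genes 19.9% passed without KO_3. In the list of SHP2 and its docking partners 13 of 17 tested genes were lower and 4 higher in KO, 2 lower and 1 higher with no overlap, near the 17.7% of all genes, with a median of -0.20, which was -0.32 without KO_3 and -0.12 without KO_2. Gab2 was at 25.8, 24.1 and 32.0 FPKM against 30.8, 30.9 and 32.3, and the adaptor Grb2 at 166, 173 and 119 against 145, 163 and 147. Csf1r, the receptor for the macrophage growth factor CSF1, was at 87.4, 71.8 and 176 against 181, 211 and 206 (-0.94, adjusted p = 0.343; without KO_3 -1.32, adjusted p = 0.002), with WT at 58.2, 67.8 and 111. Among Toll-like receptor genes, Tlr7 was at 73.8, 88.5 and 72.0 in KO and 49.6, 48.7 and 67.8 in SHP099 (0.50, adjusted p = 0.324), while Myd88 was at 45.7, 48.8 and 59.6 against 59.8, 63.8 and 59.8 (-0.26, adjusted p = 0.399). Of 25 genes of Toll-like receptors and TLR7 trafficking 18 were higher and 7 lower, 2 and 1 with no overlap (17.7% of all genes), with a median of 0.02, which was 0.11 without KO_3, 0.01 without KO_1, 0.06 without SHP099_2 and 0.05 without SHP099_3. Of 32 NF-kB subunits, inhibitors and kinases 10 were higher and 22 lower, 7 and 5 with no overlap (17.7% of all genes), with a median of -0.10, which was -0.05 without KO_3.

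Scavenger receptor and tissue remodelling genes did not pass the test, and some of them had KO and SHP099 libraries with no overlap. Without KO_3, 9 higher and 6 lower of 28 scavenger genes passed it, and 9 higher and 2 lower of 27 protease genes. Of all genes 19.9% passed without KO_3. Cd36, a receptor for oxidized lipids, was at 265, 299 and 264 FPKM in KO, at 156, 146 and 126 in SHP099 and at 319, 233 and 198 in WT (KO minus SHP099, 0.96 ± 0.10, adjusted p = 0.0555). Spp1, which encodes the secreted matrix protein osteopontin, was at 1225, 1581 and 1266 against 699, 618 and 475 (1.19 ± 0.17, adjusted p = 0.106), and the metalloproteinase gene Mmp19 at 8.70, 7.63 and 6.88 against 3.39, 2.98 and 3.12 (1.07 ± 0.12, adjusted p = 0.0583). In these 3 genes KO_3 lay with the other KO libraries. In the mannose receptor gene Mrc1 it did not: KO was at 59.8, 71.2 and 19.4, SHP099 at 10.3, 10.11 and 9.79 and WT at 61.5, 43.8 and 43.5, with a difference of 2.02 ± 0.45 (adjusted p = 0.244) that became 2.58 without KO_3 (adjusted p = 0.000773). The elastase gene Mmp12 followed the same pattern with 205, 212 and 51.0 against 47.0, 38.7 and 40.8 (1.61, adjusted p = 0.335; without KO_3 2.28, adjusted p = 0.000789). Of 28 alternative activation and scavenger genes 16 were higher and 12 lower, 8 and 2 with no overlap, with a median of 0.28, and of 27 protease, coagulation and remodelling genes 22 were higher and 5 lower, 8 and 1 with no overlap, with a median of 0.38, while 17.7% of all genes had no overlap. Without KO_3 the medians were 0.10 and 0.14, without SHP099_3 that of the scavenger list was 0.14, and without KO_2 and SHP099_1 that of the protease list was 0.72 and 0.70.

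**Figure D4:**
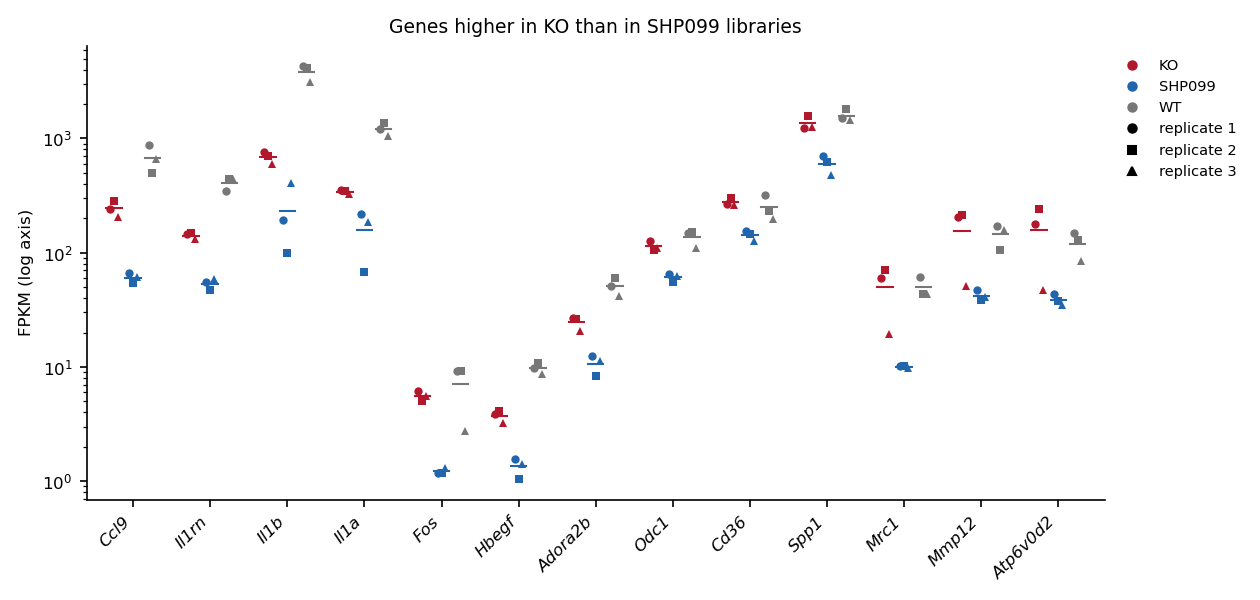
FPKM on a log axis of 13 genes that were higher in KO than in SHP099, by library, with a bar at the mean of each group. KO and SHP099 libraries do not overlap for any gene shown, KO_3 is close to SHP099 for Mrc1, Mmp12 and Atp6v0d2, and the WT libraries lie above both groups for Ccl9, Il1rn, Il1b, Il1a, Hbegf and Adora2b.

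Metabolic and lysosomal genes did not pass the test either. Without KO_3, 17 higher and 2 lower of 47 lysosome genes passed it, and 6 higher and 9 lower of 39 Nrf2 genes. Of all genes 19.9% passed without KO_3. Odc1, the rate-limiting enzyme of polyamine synthesis, was at 126, 106 and 111 FPKM in KO and 65.0, 54.9 and 62.5 in SHP099 (0.90 ± 0.10, adjusted p = 0.0555). The adenosine receptor gene Adora2b was at 26.7, 26.4 and 20.8 against 12.4, 8.30 and 11.2 (1.15 ± 0.17, adjusted p = 0.106), while the related Adora2a was at 160, 159 and 199 against 214, 252 and 262 (-0.49, adjusted p = 0.275). The receptors of adenosine thus lay on opposite sides. Of the lysosomal genes, the collagen-degrading cathepsin Ctsk was at 172, 190 and 102 against 61.4, 64.3 and 61.6 (1.25 ± 0.22, adjusted p = 0.183), and the proton pump subunit Atp6v0d2 at 179, 243 and 47.4 against 43.5, 38.1 and 34.7 (1.70, adjusted p = 0.341; without KO_3 2.41, adjusted p = 0.00124). Gstm2, a glutathione transferase gene, was at 17.1, 17.1 and 9.05 against 4.53, 4.003 and 2.87 (1.65 ± 0.26, adjusted p = 0.138), while Gsto1, of another class of such enzymes, was at 77.0, 72.8 and 138 against 197, 169 and 155 (-0.90, adjusted p = 0.282). Over the lists, 33 of 47 lysosome and V-ATPase genes were higher with a median of 0.12 (0.05 without KO_2), 14 of 39 Nrf2, glutathione and xenobiotic response genes were higher with a median of -0.05 (-0.01 without KO_2, -0.08 without KO_3, -0.02 without SHP099_2), and 0 genes of either passed the test. The groups did not overlap at 8 of the 47 genes and, 9 higher and 7 lower, at 16 of the 39, beside 17.7% of all genes.

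Genes of the circadian clock did not pass the test between KO and SHP099. Without KO_3, 1 higher and 7 lower of the 18 tested passed it, beside 19.9% of all genes. Tef, a PAR bZIP factor driven by the clock, was at 23.2, 19.7 and 25.6 FPKM in KO, at 37.5, 43.9 and 41.2 in SHP099 and at 14.9, 16.5 and 12.97 in WT (KO minus SHP099, -0.82 ± 0.12, adjusted p = 0.106). Nr1d2, which encodes the clock repressor REV-ERB beta, was at 17.6, 14.8 and 33.6 against 38.4, 40.4 and 39.1, with WT at 11.3, 15.2 and 15.5 (-0.89, adjusted p = 0.328; without KO_3 -1.23, adjusted p = 0.0015). The SHP099 libraries were therefore the highest of the 3 groups for both genes, and SHP099 minus WT was 1.41 and 1.43 (adjusted p = 0.00404 and 0.00496). Of 18 clock and PAR bZIP genes tested 14 were lower and 4 higher, 5 and 1 with no overlap (17.7% of all genes), with a median of -0.30, which was -0.44 without KO_3 and -0.17 without KO_2. The hour of collection of each library is not stated, and its part in these values was not tested.

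The remaining lists had medians between -0.19 and 0.23, and 0 of their genes passed the test with all libraries. Without KO_3, 19 of 30 stress response, 17 of 37 cholesterol, 9 of 17 arginine and 11 of 37 glycolysis genes passed it. So did 10 of 51 respiratory chain, 10 of 26 prostaglandin, 7 of 16 MHC class II, 3 of 12 heat shock and 0 of 38 cell cycle genes. Of all genes 19.9% passed without KO_3. The median difference was 0.00 for 37 glycolysis and HIF-1 target genes and 0.01 for 30 genes of the integrated stress response (-0.06 and -0.17 without KO_3, and for glycolysis 0.10 without KO_2, 0.06 without SHP099_1, -0.05 without SHP099_2 and -0.01 without SHP099_3, and for the stress response 0.00 without SHP099_3), both of which changed sign under quantile normalization, at -0.01 and -0.02, and the glycolysis list also under median-of-ratios scaling, at -0.01. It was 0.05 for 51 respiratory chain genes (0.13 without KO_3, -0.03 without KO_1, 0.00 without KO_2), 0.04 for 26 prostaglandin, leukotriene and sphingolipid genes (0.02 without KO_1, 0.10 without KO_2 or SHP099_3, 0.03 without SHP099_1), 0.02 for 16 MHC class II and costimulation genes (0.15 without KO_3, -0.18 without KO_2, -0.05 without SHP099_2, 0.11 without SHP099_3, -0.00 with limma voom and -0.18 over the 14 genes with a mean of at least 5 FPKM), 0.11 for 12 dissociation and heat shock genes (0.06 without KO_1, 0.17 without KO_3), 0.13 for 37 cholesterol and LXR target genes and -0.19 for 17 arginine, itaconate and nitric oxide genes. Cell cycle and DNA replication genes were higher at 35 of 38 with a median of 0.23, which was -0.00 without KO_3, 0.45 without KO_2, 0.51 without SHP099_1 and 0.08 without SHP099_3. Of them 0 were separate between the groups, beside 17.7% of all genes. The fibroblast and mesothelial markers moved with this list, from a median of 0.06 to -0.52, 0.66, 0.51 and -0.28 without the same libraries. Their part in it was not tested. Cholesterol and LXR target genes moved the other way from the cell cycle list, to 0.32 without KO_3, with 33 of 37 higher. Without KO_1, KO_2 and SHP099_2 that median was 0.05, 0.03 and 0.07. A pseudocount of 5 brought the medians of SHP2 partners to -0.13, CC chemokines to 0.35, clock genes to -0.18, Nrf2 genes to -0.02 and cell cycle genes to 0.13. Quantile normalization brought the ERK list to 0.02, Nrf2 genes to -0.09 and heat shock genes to 0.07, and median-of-ratios scaling brought Toll-like receptor genes to 0.01 and the stress response and MHC class II lists to 0.00. At a mean of at least 5 FPKM Nrf2 genes were at -0.10 and prostaglandin genes at 0.02, and scavenger genes were at 0.17 with a pseudocount of 0.1 and with limma voom.

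**Figure D5:**
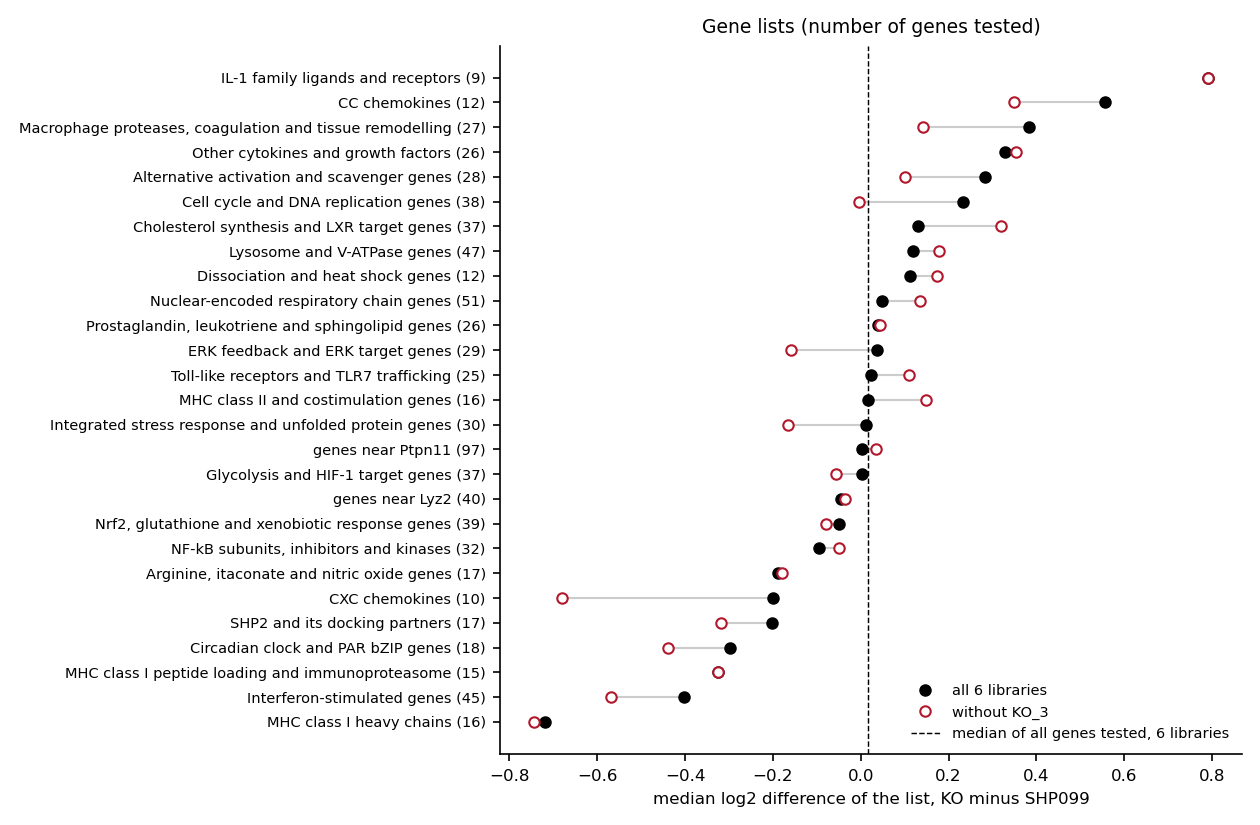
Median log2 difference (KO minus SHP099) of each gene list, with all 6 libraries (filled) and without KO_3 (open), beside the median of all genes tested (dashed line). Of the lists drawn, which leave out the cell type markers and the lysozyme genes, the class I heavy chain list lies lowest and the IL-1 family list highest with and without KO_3, and the ERK, stress response, glycolysis and cell cycle lists change sign without KO_3 (ERK also at a mean of at least 5 FPKM, glycolysis and stress response also under quantile normalization, glycolysis also under median-of-ratios scaling).

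At some genes KO_3 alone carried the variation of the KO group. They were picked after their values were seen. Itgax, the integrin CD11c, was at 199.6, 267 and 13.5 FPKM in KO and 14.9, 19.5 and 20.2 in SHP099. The prostaglandin E synthase gene Ptges was at 185, 102 and 1709 against 1462, 1444 and 1554, and the scavenger receptor gene Marco at 51.6, 33.9 and 274 against 135, 181 and 218. KO_3 was thus close to the SHP099 libraries for Itgax and Ptges and above all SHP099 libraries for Marco. Without it the differences were 3.61 for Itgax, -3.43 for Ptges and -2.04 for Marco, and with it all 3 genes overlapped between the groups.

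Markers of other cells were measured in each library. B cell and plasma cell markers (5 of 13 tested, led by the immunoglobulin gene Igkc) summed to 64.7, 28.9 and 455 FPKM in KO and 56.8, 31.3 and 70.3 in SHP099, and fibroblast and mesothelial markers (12 of 21, led by the collagen gene Col1a1) to 213, 82.6 and 827 against 507, 212 and 152. Both sums were highest in KO_3. T and innate lymphoid markers (3 of 19, led by Thy1) summed to 4.20, 2.92 and 18.2 against 25.1, 16.1 and 18.4, and neutrophil markers (5 of 13, led by Csf3r, with Retnlg at 0) to 109.5, 109 and 187 against 119, 119 and 159. KO_1 and KO_2 were thus low in T cell transcripts while KO_3 was not. Dendritic cell markers (4 of 12, led by Bst2, with Siglech at 0) summed to 317, 252 and 283 against 321, 258 and 324, and endothelial and platelet markers (3 of 15, led by Pf4, with Cldn5 and Emcn at 0) to 116, 115 and 208 against 144, 105 and 139. Mast cell and basophil markers (2 of 13, led by Hdc, with Ms4a2, Fcer1a and Mrgprb2 at 0) summed to 5.45, 4.38 and 9.06 against 2.43, 1.22 and 1.46, and eosinophil markers (0 of 9, led by Siglecf, with Ear1, Ear6 and Prg3 at 0) to 1.03, 1.19 and 0.363 against 0.0549, 0.0304 and 0.0503. The part of any of these in the results above was not tested.

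Of a list of gamma delta T cell genes, added after their values were seen, 0 passed the test. The receptor gene segment Trdv4 was at 0.730, 0 and 0.889 FPKM in KO and at 7.18, 3.28 and 3.44 in SHP099, and the scavenger receptor gene Cd163l1 of these cells at 0.236, 0.124 and 0.991 against 7.70, 3.89 and 4.41 (-2.13 ± 0.31, adjusted p = 0.106). Both genes were below 1 FPKM in each KO library and passed the filter only through other groups, so their direction supports nothing. The 15 markers of the list, of which 3 were tested, summed to 3.04, 0.874 and 5.91 in KO, 29.4, 15.2 and 18.5 in SHP099 and 1.90, 10.9 and 6.39 in WT, with Cd163l1 the most abundant. The SHP099 libraries thus had higher sums of these transcripts than either other group, and the part of this in the results above was not tested.

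Each group was also compared with the WT libraries. At the same threshold of 0.05 KO minus WT gave 10 of 11450 genes (0.0873%) and SHP099 minus WT gave 797 (6.96%). Both share the WT libraries, and the spread was 0.180 among the KO and 0.116 among the SHP099 libraries as the median SD over all genes, so the counts do not compare the sizes of the changes. The median over all genes was 0.15 for KO minus WT and 0.13 for SHP099 minus WT. The named genes that passed the limma test or had the largest differences with no overlap between KO and SHP099 numbered 27. For 3 of them, Ccl9, Il1b and Il1rn, all WT libraries lay above both groups, for 12 the WT range overlapped that of KO, among them Fos, Mrc1, Ccl22 and H2-M3, for 4 it overlapped that of SHP099, namely Ptpn11, Lyz1, H2-Q7 and Calhm6, and for 8 it overlapped both.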

How the data were processed

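RNA-seq of IMQ-treated peritoneal macrophages was analysed from the table that the authors deposited, which holds FPKM per gene for 9 libraries, 3 each of WT, KO and SHP099. According to the submitters' notes, reads from poly-A RNA were processed with CASAVA 1.8, aligned with HISAT2 2.0.4 and counted with HTSeq 0.9.1. The strand setting of counting and the genome build are not stated. 91.8% of 5235 gene spans compared were equal to GENCODE M21 on GRCm38, which was used for positions. Whole reads were recovered from the deposited FPKM: of low values (at most 50 reads), 96.3 to 96.7% per library lay within 0.05 of a whole number, and read totals ran from 39841813 to 50979545. This depth makes counting error small for most genes at or above 1 FPKM, and 3 libraries a group limit the precision.

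KO and SHP099 were compared with limma 3.58.1 (lmFit, eBayes with a trend; R 4.3.3) on log2(FPKM + 1) of the 6 libraries, two-sided, with Benjamini-Hochberg adjustment over the 11450 genes with a mean of at least 1 FPKM over the 9 libraries. KO minus WT and SHP099 minus WT were fitted likewise. Tables and figures were made with Python 3.11.15 (numpy 2.4.6, pandas 2.3.3, matplotlib 3.10.9). Named genes are those at an adjusted p of at most 0.05 (8), the 12 largest differences in each direction among 382 genes with no overlap and an unadjusted p of at most 0.01, members of the gene lists with at most the 4 largest non-overlapping differences of each in full, and Ptpn11, Lyz2, Lyz1, Tlr7, Il6, Il1b, Il1a, Il1rn, Il23a, Tnf, Ptgs2 and Csf2. Other genes named, and the class I and gamma delta lists, were chosen after their values were seen. Members and lists were chosen with earlier results of these data known, and lists are described without a test. Alternatives were pseudocounts of 0.1 and 5, no filter, a mean of at least 5 FPKM, equal sums, median-of-ratios scaling, quantile normalization, no trend, all 9 libraries in the fit, a block on replicate number, limma voom on recovered reads, and leaving out each library. Lists of sex-linked genes served only as a check of the libraries.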

Additional observations from a re-analysis of the deposited data

How the results depend on the processing

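The count of 8 genes at an adjusted p of at most 0.05 was 3 with no filter on low FPKM (1 of the 8 among them), 17 at a mean of at least 5 FPKM (7 of the 8), 3 with all 9 libraries in the fit and 14 with limma voom on recovered reads (all 8). It was 0 with a block on replicate number, where limma gave 1640 genes at an unadjusted p under 0.05. Residuals of libraries with the same number had r = -0.014, 0.183 and -0.047 across genes, within the -0.274 to 0.204 of other pairs, and the labels state no pairing, so the libraries were not treated as pairs. The thresholds of the methods gave 0 genes, and leaving out a library gave 0 to 2277. With pseudocounts of 0.1 and 5, equal sums, median-of-ratios scaling, quantile normalization and no trend it was 6 to 8. The count at the thresholds of the methods was 1 with all 9 libraries, 0 to 159 when a library was left out and 0 under the other alternatives run. The cause of these shifts was not tested, except that a filter changes how many genes are tested (26663 and 8285) and a left-out library leaves 5. All 1750 values of the 104 genes run under the alternatives kept their direction. For most of these genes this was set in advance. They had no overlap between the groups, so leaving out a library could not reverse them. The block, all 9 libraries and no trend leave the difference itself unchanged. Of the values, 66 lost and 70 gained an adjusted p of at most 0.05, 62 of the gains without KO_3. Only the 8 called genes could lose it, and all 8 did with the block and without KO_1 or any single SHP099 library. Some named genes were not among the 104, such as Grb2, at -0.01 and 0.16 without KO_3. Of 677 list medians 22 moved by more than 1 SD. The median of all genes moved by less than 0.1 under each scaling. The largest shift came from leaving out KO_3, and whether it stems from the animal, the culture or the library cannot be told apart. Levels of genes near 1 FPKM rest on fewer reads, and the strand of counting limits genes that overlap on opposite strands.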
